A study of Mus musculus with 11 samples.

Results

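Plasma cells outside the cell cycle made up 1066 of the 12266 cells kept from whole small-intestinal mesenchyme of the mouse, and are described here through their antibody chains and their secretory genes. They were chosen by a gate on their own RNA: 5 or more UMIs of Mzb1 and 100 or more of Jchain, with no UMI of Mki67, Top2a, Cd3d, Cd3e or Cd3g. A UMI is a molecular tag that counts 1 captured RNA molecule. A cell was kept if at least 500 genes were detected in it and less than 10% of its UMIs were mitochondrial, which left 16156 cells in 3 single-cell libraries. The gate took 543 of 6226 cells of library 1, which is 8.72% (95% exact binomial interval 8.03 to 9.45), and 523 of 6040 cells of library 2, which is 8.66% (7.96 to 9.40). These intervals, and all intervals and limits given for shares of cells, cover counting error only.

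Tissue came from small intestine stripped of muscle and of its epithelium and then digested with collagenase II. Of whole mesenchyme there were 2 droplet libraries, made with a 3′ assay, with no treatment and no antibody selection named in their titles. Their labels give no strain, genotype or age and do not say that they came from separate animals. Every p-value here therefore measures only how differences between cell classes varied across these 2 libraries, with the spread estimated over all classes together. A further droplet library held GFP-positive cells from PDGFRA-reporter mesenchyme, and 8 bulk libraries held sorted populations, 2 of each: telocytes (GFP-high cells) and PDGFRAlo stromal cells (GFP-low cells) of PDGFRAH2BEGFP transgenic mice, and CD31+LYVE1- intestinal endothelial cells (called blood endothelium here) and CD31+LYVE1+ lymphatic endothelial cells of C57BL/6 mice. The reporter of those mice is driven from the Pdgfra gene and marks stromal cells, not plasma cells. The protocol text of both whole-mesenchyme libraries repeats the wording of the GFP sort, and whether they were sorted in any way was not tested.

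A plasma cell is the end stage of the B cell lineage and is built to secrete antibody. In the gut most plasma cells lie in the lamina propria, the connective tissue under the epithelium, and make IgA, which leaves the cell as a dimer held by the J chain (Jchain) and is carried across the epithelium. Antibody heavy and light chains enter the endoplasmic reticulum (ER) through the Sec61 channel, are folded there by chaperones and disulfide isomerases, receive N-linked sugars and leave in COPII vesicles for the Golgi. Xbp1, a transcription factor activated by the ER stress sensor Ern1, is known to drive much of that machinery in plasma cells. Each B cell rearranges 1 set of variable segments and uses either a kappa or a lambda light chain, so the chains of a cell also tell which clone family it may come from.

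The gated cells were compared with 3 other classes of the same 2 libraries. Cycling plasmablasts passed the same gate but held an Mki67 or Top2a UMI (201 and 213 cells in libraries 1 and 2). B cells held Ms4a1 and Cd79a UMIs with no CD3 UMI, and lay under the Mzb1 and Jchain limits (68 and 57 cells). Remaining cells were all the others (5414 and 5247 cells), and held markers of fibroblasts, T cells, endothelium, smooth muscle and macrophages. Summed over cells, the classes held 12725505 and 12025981 UMIs of plasma cells, but only 238546 and 187570 of B cells, where 1 UMI is worth 2.28 and 3.03 CPM (CPM is a gene's count scaled to a common library size). The deposited filtered matrices held 55455891 and 54729929 UMIs over 6886 and 6676 barcodes. They shared 7 kept barcodes, none of a plasma cell, and a doublet caller marked 73 and 110 cells (1.17% and 1.82%), of which 15 and 25 were plasma cells. Plasma cells were deep: their median was 23013 and 22186 UMIs per cell, against 4630.5 and 4598 in remaining cells. Much of that depth was antibody RNA, and among 2000 UMIs drawn from each cell outside the immunoglobulin genes a plasma cell showed a median of 968 and 969.5 genes, against 1032.5 and 1031 in a remaining cell. Undrawn, the medians were 2221 and 2210 genes in plasma cells, against 1822 and 1818 in remaining cells. The draw left out 3 and 3 plasma cells, against 218 and 183 remaining cells, that were too shallow.

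The markers that name the cells stood high in the gate. Txndc5, a disulfide isomerase of the ER, had a UMI in every plasma cell of both libraries. Ccr10, the receptor that draws IgA-secreting cells to mucosal epithelium, had a UMI in 91.7% and 90.2% of plasma cells, against 0.485% and 0.909% of cells gated as fibroblasts (Pdgfra 2 UMIs or more, no Ptprc). Slpi, a secreted inhibitor of leukocyte proteases, had a UMI in 76.2% and 74.0% of plasma cells, against 1.94% and 1.64% of gated fibroblasts. The fibroblasts, which should lack both genes, had median depths of 7908.5 and 7834.5 UMIs. At 2000 drawn UMIs the shares in plasma cells were 72.6% and 69.6% for Ccr10 and 60.4% and 58.5% for Slpi. Slpi was also the most uneven of the 3 markers: per 10000 UMIs outside the immunoglobulin genes, its 90th percentile over cells was 55.1 and 46.2 and its median 7.35 and 5.99, while the 90th percentile of Txndc5 was 67.0 and 71.9 and its median 43.6 and 43.7. All 5 markers were picked with these data in view, so their levels describe the gate.

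At the gate's edges few cells were at stake for Mzb1 and Jchain, and more for the CD3 limit. With the other limits met, 20 and 26 plasma cells held 5 to 9 Mzb1 UMIs, and 12 and 17 cells just outside held 1 to 4. Jchain split the cells widely: 0 and 1 plasma cells held fewer than 200 UMIs, no cell held 50 or more but under 100, and 15 and 17 cells with enough Mzb1 held fewer than 50. The CD3 limit set aside 141 and 164 cells that met the Mzb1 and Jchain limits, all of them with Igha as their top heavy chain. Of those, 76.6% and 82.3% also held a UMI of the T cell receptor genes Trac or Trbc2, against 7.73% and 9.18% of the plasma cells themselves. These CD3-positive cells count as remaining cells. Cells with 5 or more Mzb1 or 100 or more Jchain UMIs, which include them, carried 95.2% and 95.7% of the Mzb1 UMIs of remaining cells, 94.2% and 96.3% of the Igkc UMIs and 96.1% and 96.6% of the Ccr10 UMIs. Log2 differences from remaining cells are therefore also given, where they move by over 1.5 times, against that class without those cells (called the trimmed class).

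Antibody transcripts filled most of a plasma cell's RNA. The immunoglobulin genes and Jchain took a median of 70.4% and 69.7% of a plasma cell's UMIs, 53.4% and 51.8% in cycling plasmablasts, 1.01% and 0.931% in B cells and 0.387% and 0.353% in remaining cells. Empty droplets carried such RNA too: in barcodes of 1 to 50 UMIs the share was 18.7% in both libraries. Over all UMIs of the plasma cells, the kappa constant gene Igkc (chr6:70726435-70726966, forward strand) alone took 43.2% in library 1 and 42.9% in library 2. The alpha constant gene Igha (chr12:113254830-113260236, reverse strand) took 16.4% and 16.1%. Jchain (chr5:88519809-88527891, reverse strand) took 6.73% and 6.91%. Each of these shares was nearly equal in the 2 libraries. In cycling plasmablasts Igkc took 30.9% and 31.5%, and Igha 12.6% and 12.8%, so both genes filled a larger part of the plasma cells' RNA in each library. These genes and the gate genes were not tested, because the gate chose cells for them or for their companions.

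**Figure D1:**
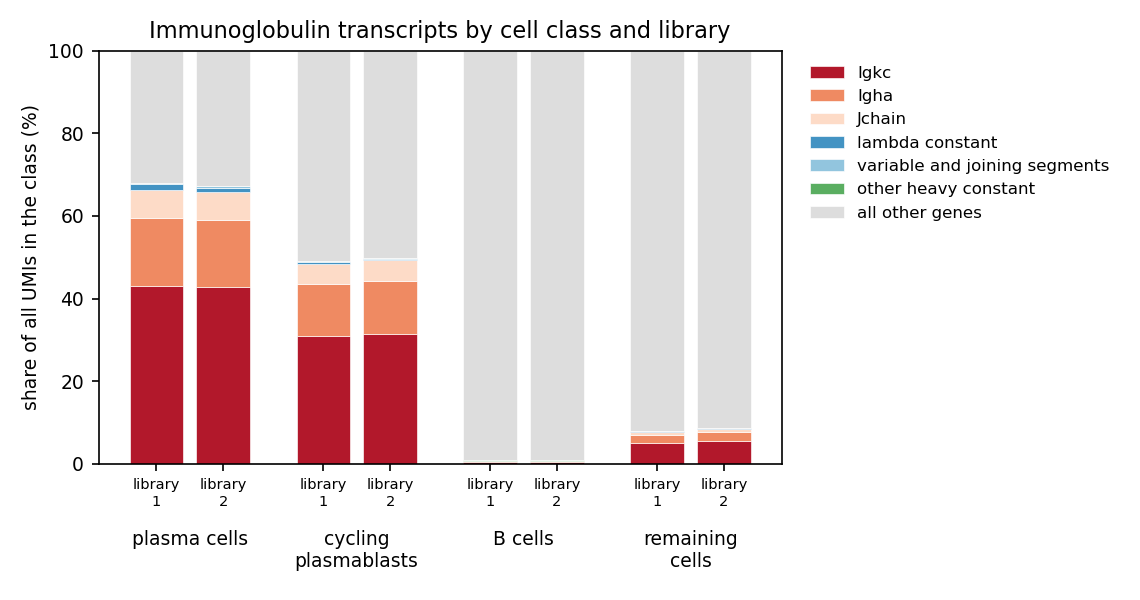
Share of all UMIs (percent) taken by each part of the antibody mRNA in plasma cells, cycling plasmablasts, B cells and remaining cells, with 1 stacked bar for each of the 2 whole-mesenchyme libraries. In plasma cells Igkc takes 43.2% and 42.9% and Igha 16.4% and 16.1% of UMIs, and in remaining cells Igkc takes 4.95% and 5.41%.

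Every plasma cell that passed the gate was an IgA cell. The gate itself required UMIs of Jchain, the chain that holds IgA dimers. The isotype shares and limits given here therefore partly describe the gate, and do not cover cells with little Jchain. How far the Jchain limit set the isotype was not tested. Igha gave 80% or more of the heavy constant UMIs in 543 of 543 and 523 of 523 cells (lower exact limit 99.3% in each library). No cell was dominated by another isotype, which at 3 counts as the limit of a count of 0 allows a share of up to 0.552% in library 1 and 0.574% in library 2 (exact upper limits 0.677% and 0.703%). A cell held a median of 3749 Igha UMIs in library 1 (range 502 to 13164) and 3673 in library 2 (range 93 to 13108). Traces of other isotypes were common but small. Ighg2b, the constant gene of IgG2b, had a UMI in 25.2% and 20.3% of plasma cells, against 1.78% and 1.27% of gated fibroblasts. It reached 10 or more UMIs in 86 and 71 plasma cells, with a highest value of 150 and 55. Ighm, the constant gene of IgM, had a UMI in 6.45% and 10.7% of plasma cells, against 3.56% and 3.64% of gated fibroblasts, and 10 or more in 18 and 34 cells. Both genes were named after their values had been seen. The class had no IgM or IgG group large enough to compare with the IgA cells. Outside the gate, 15 and 17 cells met the other limits but held under 50 Jchain UMIs. Ighm was the top heavy chain in 10 and 9 of them and Igha in 4 and 8. Their median was 18 heavy constant UMIs in each library.

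**Figure D2:**
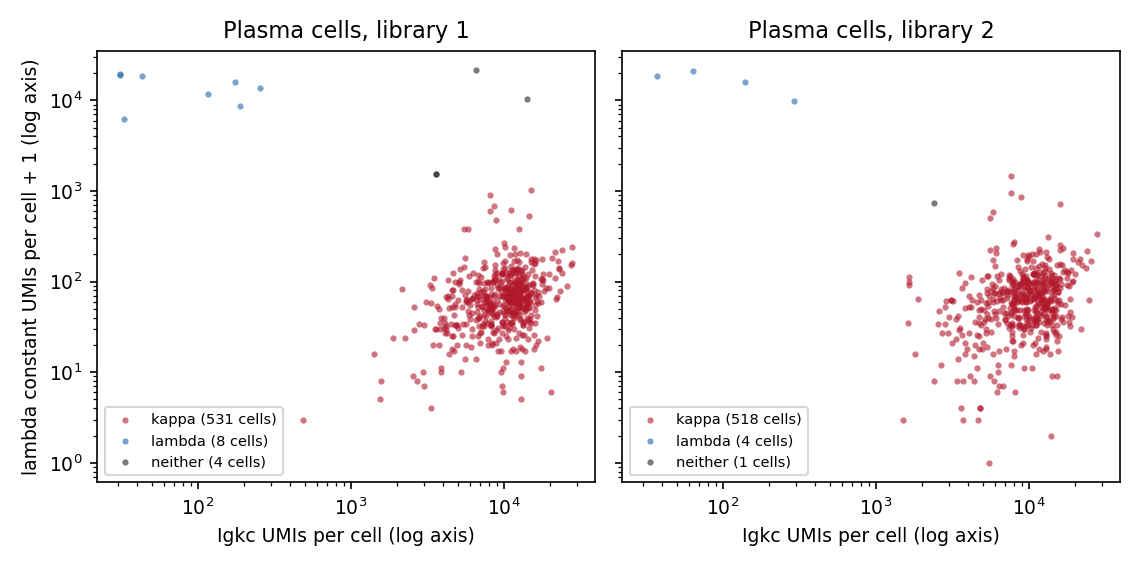
Igkc UMIs (horizontal axis) against summed lambda constant UMIs plus 1 (vertical axis) for each plasma cell, both axes logarithmic, 1 panel for each library, coloured by the light chain that gave 80% or more of the light constant UMIs. The kappa cells (531 and 518) form a dense cloud at high Igkc, the lambda cells (8 and 4) a small group at high lambda and low Igkc, and 4 and 1 cells lie between.

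Kappa light chains prevailed. Igkc gave 80% or more of the light constant UMIs in 531 plasma cells of library 1, or 97.8% (exact interval 96.2 to 98.9), and in 518 of library 2, or 99.0% (97.8 to 99.7). Lambda chains did so in 8 and 4 cells, or 1.47% and 0.765%. All 12 lambda cells used Iglc1 (chr16:19061618-19062071, reverse strand): it reached 6267 to 19409 UMIs in the 8 cells of library 1 and 9767 to 21048 in the 4 cells of library 2. Their Igkc was 31 to 256 UMIs in library 1 and 37 to 291 in library 2. Over all plasma cells the median was 10230 and 9613 Igkc UMIs.

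Between the clouds lay 5 cells with neither chain at 80%. In library 1 the deepest held 6522 Igkc and 21456 lambda constant UMIs, and the next held 14165 and 10405. The other 2 pairs of values in library 1 were 3588 against 1529 and 3601 against 1521. In library 2 the lone such cell held 2397 Igkc and 743 lambda constant UMIs, of which Iglc1 was only 8. Both chains therefore stood far above background in these cells. The doublet caller marked none of the 5, but it ran without immunoglobulin genes and so could not use the light chains. It cannot decide whether a kappa and a lambda plasma cell shared a droplet, which was not tested. The first 2 cells named held 48656 and 46080 UMIs in all, against a median of 23013 in plasma cells of library 1. The other 2 of library 1 held 13569 and 17836. The cell of library 2 held 14029, against a median of 22186 in plasma cells there. With 12 lambda cells in all, no comparison of lambda with kappa cells was made.

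Lambda RNA also reached nearly every kappa cell at a low level. In kappa cells the medians were 13 and 13 UMIs of Iglc1, 36 and 36 of Iglc2, and 6 and 6 of Iglc3. In gated fibroblasts the median of each was 0, with a UMI of Iglc2 in 8.90% and 11.8% of cells, against 97.6% and 96.3% of kappa cells. Iglv1, a lambda variable segment, had medians of 17 and 22 UMIs in kappa cells and a UMI in 96.6% and 95.6% of them. Only 2.59% and 3.82% of gated fibroblasts and 0% and 1.75% of B cells held an Iglv1 UMI. The depths differ between these classes, with medians of 22963 and 22184 UMIs in kappa cells, 7908.5 and 7834.5 in fibroblasts, and 2717.5 and 2661 in B cells. Across kappa cells, Iglv1 and Iglc1 were weakly and inversely related (Pearson r = -0.28 and -0.27 over 531 and 518 cells that share a library and depth), which is given as a description. The authors' counting could share reads between Iglc2 and Iglc3, which are near-identical, and between related variable segments, so their separate values are uncertain.

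The variable segments were many and were shared between libraries. A 3′ assay reads mainly the constant end of an antibody mRNA, so a cell held a median of only 12 and 12 heavy variable UMIs and 20 and 21 kappa variable UMIs. A cell was assigned a segment when 80% or more of at least 5 such UMIs came from it, which named a heavy segment in 438 and 418 cells and a kappa segment in 465 and 452. The heavy cells used 58 and 55 different segments, of which 45 were seen in both libraries, or 77.6% and 81.8% of each library's segments. The kappa cells used 56 and 58 segments, with 49 in both, or 87.5% and 84.5%. Ighv1-12 led the heavy segments with 10.3% and 10.8% of assigned cells, and Ighv1-18 followed with 9.36% and 7.66%. Igkv10-96 led the kappa segments with 12.7% and 12.8%, before Igkv1-133 with 10.3% and 10.2%. The widest gap between libraries was 3.34 percentage points, for Ighv9-3 with 4.79% and 8.13%. Joining regions are not resolved in these counts, so 2 cells with 1 segment in common need not be of 1 clone.

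**Figure D3:**
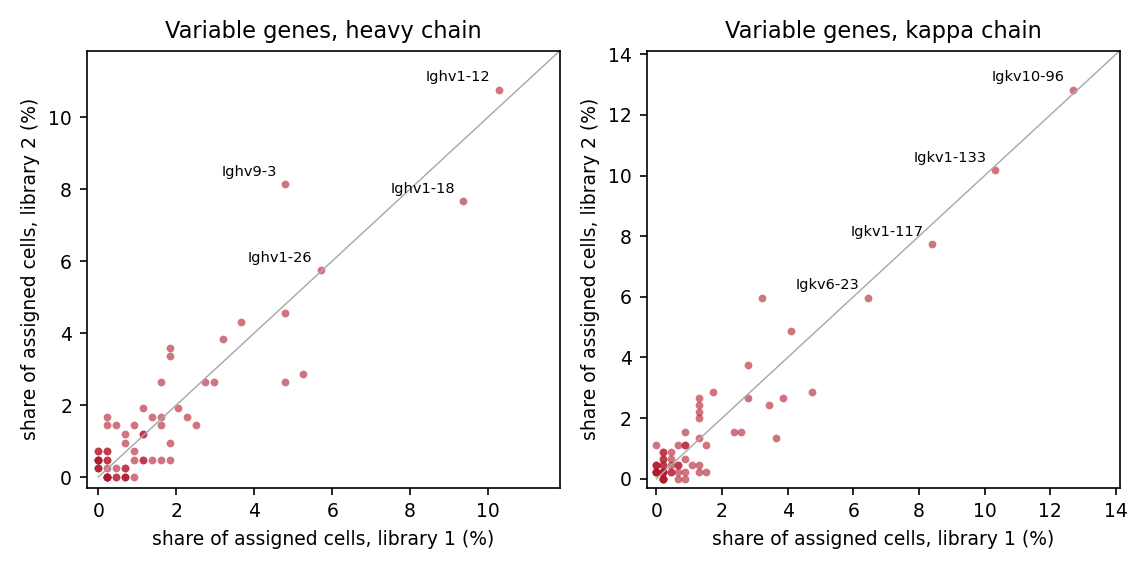
Share of assigned plasma cells (percent) using each heavy (left) or kappa (right) variable segment in library 1 (horizontal axis) and library 2 (vertical axis), 1 point for each segment, with a line where both are equal. The points follow the line, with Ighv1-12 at 10.3% and 10.8% and Igkv10-96 at 12.7% and 12.8% at the top.

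The secretory machinery stood high as a block. Of 126 genes in 6 lists (translocon and signal peptide, chaperones, oxidative folding, N-glycosylation, degradation and stress response, ER to Golgi transport), 124 could be tested. Against remaining cells, 96 of the 124 were higher in plasma cells and 2 were lower, with a median log2 difference of 1.85. Higher or lower means an adjusted p under 0.05 by edgeR's quasi-likelihood test (Benjamini-Hochberg over all genes tested) and a difference of over 2-fold. Among all 13231 genes tested, 14.6% were higher in plasma cells and 32.8% lower, and the median log2 difference was -0.26. So 77.4% of the secretory genes were higher, beside 14.6% of all genes. Against B cells, 106 of 124 were higher (85.5%) and 0 lower, with a median of 2.47, where 13.3% of all 13229 genes tested were higher and 8.48% lower and the median was 0.24. At an unadjusted p under 0.05, edgeR gave 0 of the 124 as lower than in B cells, and DESeq2 called 0 lower with the 2-fold limit. Levels are given in CPM of class sums scaled with TMM, a method that sets the typical gene equal between sums. Because antibody RNA fills the plasma sums, their scaled sizes are 0.464 and 0.475 of their totals. Scaling by totals without the immunoglobulin genes instead moves the median of all genes by -0.31 against remaining cells, by -0.28 against B cells and by 0.03 against cycling plasmablasts (log2). Under it 1310 genes were higher and 5096 lower than in remaining cells, against 1934 and 4344 with TMM, and 1218 higher and 1626 lower than in B cells, against 1761 and 1122. Of the 124 secretory genes, 82 were then higher and 2 lower than in remaining cells, and 96 higher and 0 lower than in B cells.

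**Figure D4:**
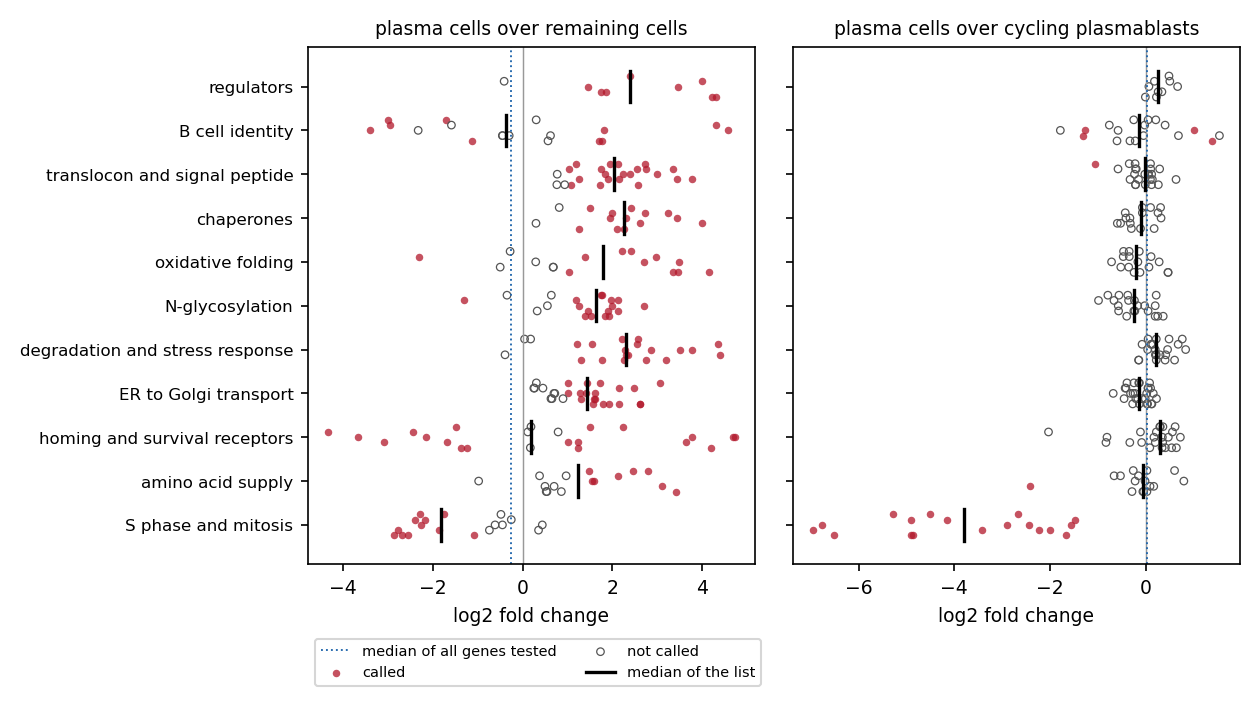
Log2 difference of each listed gene, plasma cells minus remaining cells (left) and plasma cells minus cycling plasmablasts (right), 1 row of points for each of 11 lists; filled red points passed the test with over 2-fold, open points did not, black bars are list medians and the dotted line is the median of all genes. The 6 secretory lists lie to the right of the line on the left (medians 1.43 to 2.32) and near 0 on the right, where the S phase and mitosis list alone lies far below, as the gate sets.

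Regulators of the plasma cell state were high. Of 9 tested, 8 were higher in plasma cells than in remaining cells and 0 lower (median log2 2.40), and likewise 8 against B cells (3.62). Xbp1 (chr11:5520659-5525893, forward strand) measured 2259.9 and 2206 CPM in plasma cells, 1423 and 1385 in cycling plasmablasts, 88.7 and 63.7 in B cells and 198 and 203 in remaining cells. No value of another class reached those of plasma cells. The log2 difference was 3.48 (SE 0.07) against remaining cells, 4.11 against the trimmed class, and 4.84 (SE 0.12) against B cells, with adjusted p = 6.81e-14 and 1.31e-12 (edgeR's quasi-likelihood test, Benjamini-Hochberg). Prdm1, the repressor that ends the B cell programme, measured 76.1 and 84.5 CPM in plasma cells and 22.2 and 21.9 in remaining cells (log2 1.86). Irf4, which it works with, measured 82.9 and 74.0 CPM against 14.2 and 15.6 (log2 2.40). Pou2af1, a coactivator of immunoglobulin genes, measured 305 and 321 CPM against 16.1 and 17.6 (log2 4.22, and 7.05 against the trimmed class). Fam46c, a poly(A) polymerase known to stabilise mRNAs of secreted proteins, measured 717 and 731 CPM against 41.9 and 48.2 (log2 4.01, and 5.16 against the trimmed class). Zbtb20 alone went the other way in value, with 226 and 231 CPM in plasma cells and 315 and 294 in remaining cells (log2 -0.41), which is under 2-fold.

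Entry into the ER came next, with 21 of 24 genes higher than in remaining cells and 23 of 24 higher than in B cells (medians 2.04 and 2.87). Ssr4, a subunit of the translocon-associated complex, measured 3597 and 3536 CPM in plasma cells, 95.6 and 90.9 in B cells and 246 and 275 in remaining cells. Its log2 difference was 3.77 (SE 0.07) against remaining cells and 4.61 against the trimmed class. Sec11c, the catalytic subunit of the signal peptidase, measured 2501 and 2497 CPM against 219.7 and 239 in remaining cells (log2 3.45, trimmed 4.15). Sec61b, part of the channel itself, measured 1654 and 1651 CPM against 268 and 291 (log2 2.56). The 3 genes below 2-fold, Sec62, Sec11a and Srp54a, still had log2 differences of 0.94, 0.77 and 0.77.

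Chaperones were higher for 13 of 15 genes against remaining cells and 14 of 15 against B cells (medians 2.27 and 2.69). Hsp90b1, the ER form of Hsp90, measured 3797 and 3809 CPM in plasma cells, 5087 and 5129 in cycling plasmablasts, 337 and 361 in B cells and 557 and 582 in remaining cells. It was thus highest in the cycling cells, but by under 2-fold, and the log2 difference against remaining cells was 2.74 (SE 0.06, adjusted p = 7.14e-14, edgeR's quasi-likelihood test with Benjamini-Hochberg adjustment). Hspa5 (BiP), which binds free heavy chains, measured 3510.3 and 3262 CPM in plasma cells against 1195 and 1175 in remaining cells (log2 1.51). Manf measured 1435 and 1397 CPM against 226 and 238 (log2 2.61). Canx, a lectin chaperone, was nearly level at 175 and 177 CPM against 144 and 142 (log2 0.30).

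Oxidative folding split more. Of 16 genes, 10 were higher and 1 lower than in remaining cells (median 1.80), and 12 were higher than in B cells (1.87). Txndc5 (chr13:38500079-38528824, reverse strand) measured 3012 and 3020.2 CPM in plasma cells, 2197 and 2168 in cycling plasmablasts, 29.6 and 24.3 in B cells and 161 and 176 in remaining cells. The plasma values exceeded all others, with a log2 difference of 4.17 against remaining cells and 5.65 against the trimmed class. Prdx4, a peroxidase that oxidises disulfide isomerases, measured 606 and 627 CPM against 53.4 and 58.1 in remaining cells (log2 3.47, trimmed 4.11). Pdia5, another isomerase, fell and measured 1.02 and 1.05 CPM in plasma cells, against 4.90 and 5.41 in remaining cells (log2 -2.31, SE 0.34).

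Sugar addition, quality control and export followed the same pattern. For N-glycosylation 15 of 20 genes were higher and 1 lower than in remaining cells (median 1.64). Krtcap2, a subunit of the oligosaccharyltransferase, measured 974 and 957 CPM in plasma cells against 145 and 151 in remaining cells (log2 2.70). Tusc3, an alternative subunit of the same enzyme, fell and measured 7.29 and 8.57 CPM against 19.9 and 19.5 (log2 -1.31), while Magt1, its paralog, measured 173 and 176 CPM against 44.3 and 44.0 (log2 1.98). Degradation and stress genes were higher for 18 of 21 (median 2.32). Edem2, a mannosidase that marks misfolded glycoproteins, measured 1011 and 998 CPM against 45.8 and 52.2 (log2 4.36, trimmed 6.08). Herpud1, of the retrotranslocation complex, measured 2236 and 2095 CPM against 291 and 306 (log2 2.86). Derl3, a channel component of the same route, measured 502 and 455 CPM in plasma cells, 4.55 and 3.03 in B cells and 20.7 and 24.6 in remaining cells (log2 4.40, trimmed 7.34). Ern1, the sensor itself, was not higher, with 37.6 and 42.3 CPM against 53.6 and 51.2 (log2 -0.39), and neither was Ppp1r15a, a stress-induced phosphatase subunit, with 207 and 191 CPM against 196 and 189.7 (log2 0.04). Of ER to Golgi genes 19 of 28 were higher and 0 lower (median 1.43), with all 28 differences positive. Lman1, a cargo receptor for glycoproteins, measured 513 and 530.0 CPM against 60.4 and 64.5 (log2 3.06).

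The promoters of these genes were searched for 3 short motifs on both strands, from 250 bases before to 50 after the start, in RefSeq sequences of build GRCm38.p6. The ER stress response element (ERSE: CCAAT, then 9 bases of any kind, then CCACG) is the known site of Atf6 and Xbp1 with NF-Y. It occurred in 37 of 27025 promoters (0.137%) and in 9 of the 103 secretory-list genes with a promoter in the table (8.74%). Chaperones held 5 of these, among 13 with a promoter (38.5%): Hspa5, Hsp90b1, Calr, Canx and Dnajc3. The others were Creld2, Pdia6, Syvn1 and Derl3. Of the 9, all but Canx were higher in plasma cells than in remaining cells, as were 77.4% of all secretory genes tested. The ERSE lay in 10.4% of the 77 secretory genes called higher and in 4% of the 25 not called, which is Canx alone. The Xbp1-binding UPRE core (TGACGTGG) occurred in 193 promoters (0.714%) and in 7 of the 103 (6.80%), namely Copb2, Txndc5, Txndc11 and Ube2j1, which were higher in plasma cells than in remaining cells, and Kdelr3, Sec23a and Sec24d, which were not called. It thus lay in 5.19% of the 77 secretory genes called higher and 12% of the 25 not called, and no secretory gene held both motifs. The octamer of immunoglobulin promoters (ATGCAAAT) occurred in 532 promoters (1.97%) and in 1 of the 103, Sec61g. A match is a run of letters and shows no binding. The 4 promoters below are shown because their genes had the values just given, with capitals marking the ERSE in Hspa5, Hsp90b1 and Derl3 and the UPRE core in Txndc5.
Hspa5 promoter, chr2:34771840-34772139, forward strand, ERSE 65 bases before the start: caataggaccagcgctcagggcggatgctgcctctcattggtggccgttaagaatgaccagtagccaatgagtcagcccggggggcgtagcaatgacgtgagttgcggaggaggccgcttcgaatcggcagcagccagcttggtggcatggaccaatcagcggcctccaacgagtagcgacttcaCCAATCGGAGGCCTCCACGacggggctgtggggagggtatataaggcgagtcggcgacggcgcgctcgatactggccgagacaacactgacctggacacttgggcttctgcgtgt
Hsp90b1 promoter, chr10:86705395-86705694, reverse strand, with 2 ERSE copies 212 and 107 bases before the start: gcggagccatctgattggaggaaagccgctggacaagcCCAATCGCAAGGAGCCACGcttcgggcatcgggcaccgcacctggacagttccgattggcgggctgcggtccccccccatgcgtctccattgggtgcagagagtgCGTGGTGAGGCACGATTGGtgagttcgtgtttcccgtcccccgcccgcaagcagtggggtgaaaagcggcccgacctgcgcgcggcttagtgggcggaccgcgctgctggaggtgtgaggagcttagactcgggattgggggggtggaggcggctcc
Derl3 promoter, chr10:75893148-75893447, forward strand, ERSE 156 bases before the start: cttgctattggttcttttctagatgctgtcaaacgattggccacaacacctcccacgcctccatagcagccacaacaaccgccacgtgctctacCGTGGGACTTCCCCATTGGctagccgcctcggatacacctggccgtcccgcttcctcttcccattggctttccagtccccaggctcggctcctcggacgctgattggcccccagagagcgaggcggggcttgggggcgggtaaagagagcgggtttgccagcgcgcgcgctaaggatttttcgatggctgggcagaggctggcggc
Txndc5 promoter, chr13:38527865-38528164, reverse strand, UPRE core 138 bases before the start: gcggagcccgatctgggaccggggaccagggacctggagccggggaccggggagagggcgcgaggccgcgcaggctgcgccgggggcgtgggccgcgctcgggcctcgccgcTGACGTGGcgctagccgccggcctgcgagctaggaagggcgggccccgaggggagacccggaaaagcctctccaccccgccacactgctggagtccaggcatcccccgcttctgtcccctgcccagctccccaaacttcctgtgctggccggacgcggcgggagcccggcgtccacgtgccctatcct

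Receptors for homing and survival did not move as a block. Against remaining cells 10 of 23 tested were higher and 9 lower, with a median log2 difference of 0.19 that turns to -0.12 when sums are scaled without the immunoglobulin genes. Ccr10 measured 648 and 627 CPM in plasma cells, 572 and 558 in cycling plasmablasts, 0 and 3.03 in B cells and 22.5 and 26.4 in remaining cells (log2 4.71 against remaining cells, trimmed 9.33). Ccr9, the other gut-homing chemokine receptor, measured 123 and 130.5 CPM in plasma cells against 72.8 and 73.5 in remaining cells (log2 0.79), which is under 2-fold, and 11.4 and 15.2 in B cells (log2 3.28). Tnfrsf17 (BCMA), a receptor for the survival factors April and Baff, measured 302 and 296 CPM in plasma cells, 240.3 and 229 in cycling plasmablasts, no UMI in B cells and 10.2 and 12.4 CPM in remaining cells (log2 4.73, trimmed 9.16). Its relative Tnfrsf13c, the Baff receptor, ran the other way against B cells, with 35.4 and 40.4 CPM in plasma cells and 95.6 and 106 in B cells (log2 -1.40). Sdc1 (CD138), a heparan sulfate proteoglycan used to sort plasma cells, measured 469.8 and 445 CPM against 32.6 and 33.7 in remaining cells (log2 3.79, trimmed 4.62). The integrin chains differed among themselves. Itga4 and Itgb7 pair as the receptor for the gut addressin. Itga4 measured 202 and 201 CPM in plasma cells, against 96.6 and 104 in remaining cells (log2 1.01, and 0.70 with sums scaled without the immunoglobulin genes). Itgb7 measured 193 and 202 CPM against 69.3 in both libraries of remaining cells (log2 1.51). Itgb1, the common beta chain of matrix receptors, measured 28.1 and 31.3 CPM in plasma cells, against 166 and 159 in remaining cells (log2 -2.45).

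Genes of the B cell stage were mostly lower than in B cells, and a few were kept. Of 16 tested against B cells, 13 were lower in plasma cells and 1 higher (median log2 -4.37). Pax5, the factor that holds B cell identity, measured 0.508 and 1.05 CPM in plasma cells, against 164 and 218 in B cells (log2 -7.92, SE 0.43). Fcer2a (CD23) measured 0.170 and 0 CPM, against 111 and 78.8 (log2 -10.0). H2-Ab1, a class II antigen-presenting chain, measured 323 and 380.5 CPM, against 1879 and 2001 in B cells and 1112 and 1190.4 in remaining cells, and fell in both comparisons (log2 -2.47 and -1.71). The 2 that passed in neither direction were Cd79b and Cd74. Cd79b, a signalling chain of the antigen receptor, measured 372 and 354 CPM in plasma cells, 193 and 336 in B cells and 17.5 and 19.2 in remaining cells, so it was near level with B cells (log2 0.50, under 2-fold) and above remaining cells (log2 4.31, trimmed 6.40). Cd74, the invariant chain of class II, measured 3909 and 3835 CPM in plasma cells, against 5424 and 5523 in B cells (log2 -0.50). Cd79a, the partner of Cd79b, part of the B cell gate and so not tested there, measured 862 and 812 CPM in plasma cells, against 735 and 852 in B cells. Cd52, a short surface glycoprotein, was the gene that was higher, at 1021 and 1062 CPM, against 275 and 376 in B cells (log2 1.70).

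Amino acid supply genes were higher for 8 of 16 and lower for 0 against remaining cells (median 1.23). Phgdh, which opens serine synthesis, measured 215 and 218 CPM against 19.2 and 21.2 (log2 3.42, trimmed 4.23). Slc3a2, the heavy chain of amino acid exchangers, measured 599 and 597 CPM against 194 and 204 (log2 1.59). Eprs, a glutamyl-prolyl tRNA synthetase, lay on the other side at 127 and 139.6 CPM against 260.4 and 265 (log2 -0.98), just short of 2-fold.

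The 8 largest rises against remaining cells among genes of 50 CPM or more in plasma cells, list members included, were Ly6k, Prg2, a, Tnfrsf17, Ccr10, Slpi, Cd79a and Ly6d. Prg2 (chr2:84980461-84983632, forward strand), known as the major basic protein of eosinophil granules, measured 325 and 286 CPM in plasma cells, 76.5 and 80.7 in cycling plasmablasts, 0 in B cells and 6.65 and 9.86 in remaining cells. Plasma cells were above every other class in both libraries, with a log2 difference of 5.22 (SE 0.14) against remaining cells, 9.24 against the trimmed class and 1.96 against cycling plasmablasts (adjusted p = 1.70e-12 and 4.57e-07 against remaining cells and cycling plasmablasts, edgeR's quasi-likelihood test, Benjamini-Hochberg). Ly6k, a surface protein of the Ly6 family, measured 78.8 and 35.7 CPM in plasma cells, 10.7 and 18.2 in cycling plasmablasts. It had 465 and 204 UMIs over all plasma cells and 48 and 123 over all remaining cells. Its level in plasma cells of library 1 was over 2-fold that of library 2, and its SE against remaining cells was wide (log2 5.28, SE 0.35, trimmed 7.87). Gene a (agouti), a secreted ligand known from coat colour, measured 100.0 and 105 CPM against 3.48 and 3.87 (log2 4.80, trimmed 8.67). Slpi measured 1221 and 1094 CPM in plasma cells, 533 and 603 in cycling plasmablasts, 2.28 and 0 in B cells and 47.3 and 41.7 in remaining cells (log2 4.70, trimmed 8.75). Ly6d measured 1763 and 1636 CPM against 67.7 and 79.4 (log2 4.53, trimmed 6.36). Against B cells the largest rises were Ly6c2, Prg2, Tnfrsf17, Gm5547 and a, all with no UMI in either B cell sum. Taking 3 counts over the class as a floor, they were at least 96.7, 78.3, 76.8, 55.5 and 26.2-fold higher in plasma cells, in that order.

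**Figure D5:**
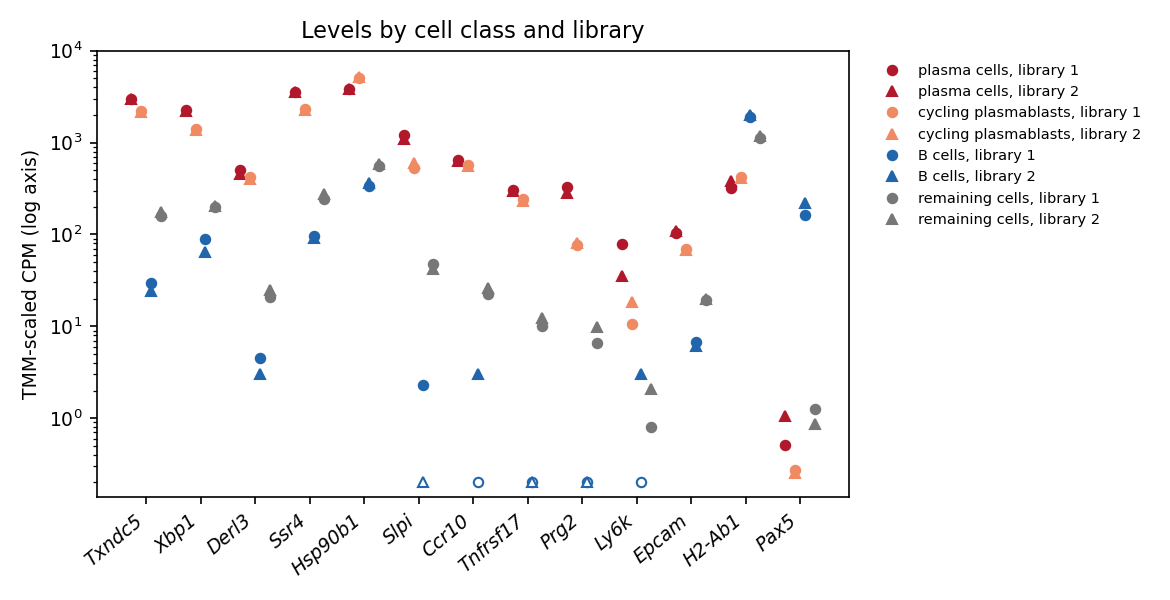
Level of 13 genes in CPM of TMM-scaled class sums (logarithmic axis) in plasma cells, cycling plasmablasts, B cells and remaining cells; circles are library 1, triangles library 2, and open markers stand for values at or under 0.2 CPM. Plasma cells lead the other classes for Txndc5, Xbp1, Slpi, Ccr10, Tnfrsf17 and Prg2, and lie far under B cells for Pax5.

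The largest falls against remaining cells named the other cell types of the tissue. They were Mmrn1 and Ccl21a of lymphatic endothelium, Gzmb and Trbc2 of cytotoxic lymphocytes and T cells, Myh11 of smooth muscle and Lyz2 of macrophages. Myh11, for example, measured 10.5 and 8.22 CPM in plasma cells, against 189 and 170.4 in remaining cells (log2 -4.26). RNA of those types still reached plasma cells at a low level. The 5 fibroblast markers summed to 1029 and 875 CPM of the UMIs outside the immunoglobulin genes in plasma cells, against 9026 and 8328 in remaining cells. The 4 smooth muscle and pericyte markers summed to 117 and 116, against 2308 and 2107, and the 5 macrophage markers to 9.85 and 9.88, against 185 and 163. The 5 T cell markers summed to 15.0 and 17.2, against 692 and 693, with the 3 CD3 genes at 0 through the gate. Cells with a CD3 UMI count as remaining cells, which favours low Trac and Trbc2 in plasma cells. This sum and the fall of Trbc2 therefore partly describe the gate. The 4 lymphatic markers summed to 6.16 and 3.55, against 266 and 257, with Prox1 at 0. Only 21 and 20 plasma cells, or 3.87% and 3.82%, held 5 or more UMIs of any of 30 markers of fibroblasts, endothelium, smooth muscle, macrophages, glia, T cells and epithelium. Those 30 leave out Epcam, the CD3 genes of the gate and the B cell markers. The part of this RNA in the results was not tested beyond leaving out those cells, under which 96 secretory genes were higher and 2 lower than in remaining cells.

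An epithelial gene went against that pattern. Epcam, an adhesion molecule of epithelia chosen for mention after its values were seen, had a UMI in 57.5% and 59.7% of plasma cells, 58.2% and 56.8% of cycling plasmablasts, 4.41% and 3.51% of B cells and 8.85% and 9.53% of remaining cells. No gated fibroblast held a UMI of it, and at 2000 drawn UMIs the share was 25.4% and 26.7% in plasma cells, against 3.46% and 3.48% in remaining cells. Its level was 105 and 110.0 CPM in plasma cells against 19.3 and 19.8 in remaining cells (log2 2.46), and the highest count in a plasma cell was 7 and 8 UMIs. The other 3 epithelial markers were at or near 0: Krt8 had 0 and 1 UMI, Lyz1 3 and 1, and Defa24 1 and 0 over all plasma cells. In barcodes of 1 to 50 UMIs Epcam took 0.00210% and 0.00220% of UMIs, against 0.00486% and 0.00523% in plasma cells. These are shares of all UMIs. Immunoglobulin genes and Jchain took 68.1% and 67.2% of all UMIs of plasma cells, against 18.7% in those barcodes. That lowers the Epcam share more in plasma cells, so the gap outside antibody RNA is wider than shown.

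Between plasma cells and cycling plasmablasts the secretory genes differed little in size. Of the 124, 0 were higher and 1, Ssr2, was lower in plasma cells by over 2-fold, and the median log2 difference was -0.07, beside 0.03 for all genes. Across all 13231 genes tested, 1.97% were higher in plasma cells (260 genes) and 3.93% lower (520 genes). Many smaller differences passed: at an adjusted p under 0.05 and any size (edgeR's quasi-likelihood test, Benjamini-Hochberg), 18 secretory genes were higher (14.5%) and 35 lower (28.2%), beside 7.57% and 11.7% of all genes (1002 and 1554). At an unadjusted p under 0.05 and any size, edgeR's quasi-likelihood test gave 26 secretory genes as higher and 48 as lower, and with the limit DESeq2 called 0 in either direction. Ssr2, of the same complex as Ssr4, measured 283 and 271 CPM in plasma cells, against 569.7 and 584 in cycling plasmablasts (log2 -1.06), and its call was lost with DESeq2 and without the plasma cells that held 5 or more UMIs of any of the 30 markers. Ssr4, by contrast, measured 3597 and 3536 against 2299 and 2290.3 (log2 0.64, under 2-fold). All 18 tested genes of the S phase and mitosis list were lower, with a median of -3.79, which the choice of cells without Mki67 and Top2a sets and which is given as a description.

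The 5 largest rises over cycling plasmablasts among genes of 50 CPM or more were Ly6a, Prg2, Ly6k, Tmem176a and Gzma. Ly6a (Sca-1) measured 229 and 268 CPM in plasma cells, 47.6 and 67.0 in cycling plasmablasts, 70.5 and 109 in B cells and 95.3 and 99.5 in remaining cells. In each library the 1 summed value of plasma cells was above that of every other class. The log2 difference against cycling plasmablasts was 2.12 (SE 0.11, adjusted p = 7.85e-09, edgeR's quasi-likelihood test, Benjamini-Hochberg). Tmem176a, a membrane protein of immune cells, measured 1219 and 1168 CPM, against 417 and 433 in cycling plasmablasts (log2 1.49). Gzma, a granzyme of cytotoxic lymphocytes, measured 53.0 and 51.4 CPM, against 18.6 and 20.0 (log2 1.43), but its difference was 0.82 without the plasma cells that held 5 or more UMIs of any of the 30 markers, and its level in remaining cells was 436 and 408 CPM. Psat1, the next enzyme of serine synthesis after Phgdh, was the gene of the amino acid list that fell, with 8.30 and 5.25 CPM in plasma cells, against 41.8 and 31.0 in cycling plasmablasts (log2 -2.42). Xbp1 and Sdc1 were higher in plasma cells by under 2-fold (log2 0.67 and 0.73).

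In the other libraries of the series plasma cells were rare or only traceable as RNA. Of 3890 kept cells of the sorted PDGFRA-GFP library 2 met the gate. The counts of that library hold 0 immunoglobulin genes beside Jchain, so chains could not be described there. In bulk, Jchain measured 144754 and 64468 CPM in the lymphatic libraries, 3513 and 4506 in blood endothelium, 1808 and 1842 in PDGFRAlo cells and 256 and 149 in telocytes. Tnfrsf17 measured 204 and 72.5 CPM, 13.8 and 6.16, 2.12 and 3.33, and 0.262 and 0.216 in the same order. The order of the groups was the same for both genes, with the 2 lymphatic libraries over 2-fold apart from each other. Mzb1 and Slpi kept that order, while Ccr10 and Derl3 overlapped between blood endothelium and PDGFRAlo cells. Txndc5, Xbp1 and Sdc1 did not keep it below the lymphatic libraries. Txndc5, for example, measured 49.0 and 107 CPM in blood endothelium, against 451 and 490 in telocytes. The bulk counts hold 1 immunoglobulin constant or variable gene, so their totals leave out the RNA of the others. Bulk CPM of Jchain is therefore not on the scale of its share in the single cells. In bulk, fewer plasma cells and less RNA per plasma cell cannot be told apart.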

How the data were processed

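Whole-gene UMI counts of 3 droplet libraries (2 of whole mesenchyme, 1 of sorted PDGFRA-GFP cells) and read counts of 8 bulk libraries were used as the authors deposited them. Cell Ranger 2.1.1 and 3.0.2, STAR and Seurat are named per the submitters' processing notes. Deposited counts were not normalized. Bulk counts were scaled only to CPM.

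Cells were filtered, gated and summed by class and library, giving 8 class sums of UMI counts. edgeR 4.0.16 (R 4.3.3) fitted class and library to all genes passing its low-count filter, with TMM, the quasi-likelihood test and Benjamini-Hochberg adjustment. Both classes of a comparison come from the same library, so the library term pairs them by construction. Gate genes were not tested. Immunoglobulin genes were not counted. A 2-fold limit was added after small differences were seen to pass. Members, lists, markers and motifs were chosen with earlier results of these data known. Named genes followed a rule by list and by the largest differences at 50 CPM or more in plasma cells.

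Doublets were marked with the caller in scanpy 1.11.5, without immunoglobulin genes and at an expected rate of 0.06, set after the default marked too few. They were kept in the main results. The fit was tested on simulated counts. Alternatives included DESeq2 1.42.0, other scalings, filters and gates. The 3′ counts are not comparable between genes by length. Gene positions are from GENCODE M21 (GRCm38), and promoters from RefSeq.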

Additional observations from a re-analysis of the deposited data

Results flagged for a closer look

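Jchain reached 144754 and 64468 CPM in the bulk libraries of sorted lymphatic endothelium (CD31+LYVE1+), outside the single-cell data, against 3513 and 4506 CPM in blood endothelium (CD31+LYVE1-). Mzb1 measured 1666 and 532 CPM in lymphatic endothelium and 81.5 and 45.4 CPM in blood endothelium. The bulk totals behind these CPM hold 1 immunoglobulin constant or variable gene and leave out the RNA of the others. How that RNA of Jchain and Mzb1 came into the sorted libraries was not tested.

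In whole mesenchyme, 141 and 164 cells met the Mzb1 and Jchain limits and held a CD3 UMI, which kept them out of the plasma cells. Their median depth was 28826 and 27216.5 UMIs, against 23013 and 22186 in plasma cells. Exactly 1 CD3 UMI was held by 45 and 34 of them and 3 or more by 88 and 120. The doublet caller marked 9 and 11 of them, and whether the others hold 2 cells in 1 droplet was not tested.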

How the results depend on the processing

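Of 677 values of 67 gene results under other settings, 672 kept their direction and, where a test could be run, their side of the threshold. The other 5 fell under 2-fold. Dad1 (0.96) and Mcl1 (0.93) did so with totals without immunoglobulin genes. H2afz did so with no low-count filter (-0.83) and against all other cells (-0.97). Gzma (0.82) did so without plasma cells holding 5 or more UMIs of any of 30 markers of other types. None reversed. With either library left out, 67 values each, no test could be run, so only direction was checked. Genes named as largest rises or falls had been chosen to keep their direction in both libraries. The count higher than in cycling plasmablasts was 465 with no low-count filter, against 260, and the cause was not tested. Without the replicate block for library, which pairs classes by construction, counts were 1951 higher and 4441 lower against remaining cells, 1825 and 1170 against B cells, and 286 and 544 against cycling plasmablasts. The plasma cell share was 8.69% over both libraries, 8.49% without predicted doublets, 8.31% with a stricter gate and 8.82% with a looser one, and 8.66% to 8.72% with either library alone. With dominance at 95%, IgA cells were 99.9% and kappa cells 96.9%, against 100% and 98.4%, and the kappa share was 97.8% to 99.0% with either library alone. The antibody share was 69.7% to 70.4% with either library alone. Lambda against kappa and IgM against IgA cells were not run, because under 20 cells made a class. Leaving out a library leaves no residual degrees of freedom, so those counts of genes have no value. The shallow B cell sums limit small differences.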
